A study of Mus musculus with 6 samples.

Results

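The genes described here are the heat shock proteins and the chaperones that work beside them, as measured in mouse triple-negative breast cancer (TNBC) tumors. Members were taken by gene symbol: every symbol beginning with Dnaj, Hspa, Hspb, Hspd, Hspe or Hsph, every Cct followed by a digit, and Hsp90aa1, Hsp90ab1, Hsp90b1, Hsf1 and Hsf2. Hspbp1, Hspbap1 and the Hspa12 genes were left out. This rule gave 68 of the 13730 genes in the deposited table, held there as 110 transcripts. The study asked what sulindac sulfide (SS), a metabolite of the anti-inflammatory drug sulindac that modulates γ-secretase, does to TNBC, and sequenced RNA from 3 control tumors and 3 SS tumors. All 6 tumors grew from C0321 cells mixed with Matrigel and placed in the mammary fat pad of female FVB mice aged 6 to 10 weeks. Once a mass could be felt, SS mice were dosed orally with 60 mg/kg daily over 14 days. Control mice received saline according to the series design, or vehicle according to the paper. C0321 is 1 clone isolated from tumors of Lfng-/- mice and is described as mesenchymal and claudin-low, so the injected cells of both groups share that origin and the tumors model a single clone in immunocompetent hosts. The labels spell the drug as a sulfate in places. Nothing in the labels ties a tumor to a litter or a day, and the p-values below measure the spread between these 6 tumors.

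Chaperones keep proteins folded. HSP70 proteins bind unfolded stretches with the help of DnaJ proteins, which deliver clients and trigger ATP hydrolysis, and of HSP110 proteins, which release the nucleotide. HSP90 finishes the folding of kinases and receptors, the ring-shaped CCT complex encloses actin and tubulin, and small heat shock proteins hold unfolded clients without ATP. When unfolded proteins accumulate, the transcription factor HSF1 is released from these same chaperones and raises the transcription of the inducible HSP70 genes. Tumor cells commonly depend on this system.

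Levels are given as CPM, counts per 1000000 after scaling the library size with TMM factors, always in the order of tumors 1, 2 and 3 of each group, and each fold change is the log2 of SS over control with its standard error (SE). Library totals lay between 8468914 and 24441522 counts, so that 3 counts correspond to between 0.123 and 0.354 CPM. Defining markers of the labelled tissue were checked first. The mesenchymal filament vimentin (Vim) was at 7863, 6575 and 7478 CPM in controls, against 5868, 8610.0 and 6576 CPM with SS. The highest tumor held 2.98 CPM of the epithelial adhesion molecule Epcam, 7.98 CPM of the claudin Cldn7, 6.40 CPM of the estrogen receptor Esr1, 3.81 CPM of the progesterone receptor Pgr and 22.3 CPM of Erbb2 (HER2). The keratin Krt18 was at 91.7, 98.0 and 80.3 CPM in controls, against 69.9, 59.4 and 61.8 CPM with SS (log2 fold change -0.50, SE 0.12, unadjusted p = 0.0039), lower in every SS tumor, and its partner Krt8 was at 417 to 544 CPM. Other keratins set control tumor 1 and SS tumors 1 and 2 apart from the remaining tumors: Krt19 was at 228, 10.8 and 4.51 CPM in controls, against 121, 306 and 11.6 CPM with SS, Krt5 at 73.03, 1.13 and 1.43 CPM in controls, against 33.9, 26.7 and 0 CPM with SS and Krt14 at 45.8, 13.99 and 6.44 CPM in controls, against 20.9, 33.8 and 7.60 CPM with SS. The part of these epithelial genes in the results was not tested. In whole tissue, fewer cells of a type and less RNA per cell cannot be told apart.

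Chaperone RNA was abundant in all 6 tumors. The 68 genes took 2.05%, 1.60% and 2.30% of all counts in controls, against 1.52%, 1.65% and 1.82% with SS. These shares overlapped between groups, and Hspa1a and Hspa1b, which spread most in absolute CPM, together held 7748, 3364 and 8549 in controls, against 2886, 5014 and 5802 with SS (CPM). Without that pair the other members summed to 12209.7, 12696 and 14526 in controls, against 12187, 11674 and 12704 with SS (CPM), with control tumor 3 standing above the rest. Control tumor 3 had the highest level of 23 of the 64 members tested (35.9%), whereas it was highest for 18.8% of all genes tested.

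No chaperone gene passed the adjusted test. In edgeR's quasi-likelihood test over the 10902 genes that passed its filter on low counts, 0 genes had an adjusted p under 0.05 (percent called 0). Of the 68 members 64 were tested, and 6 had an unadjusted p under 0.05, against 6.36% of all genes. The share among the members was 9.38%, each of the 6 had an adjusted p of 0.771, and 4 were lower with SS (Cct7, Hsp90aa1, Hspa9 and Hspb1; 3.16% of all genes) while 2 were higher (Dnajc7 and Hspa1l; 3.19% of all genes). DESeq2 called 35 of the 6039 genes for which it gave an adjusted p (0.58%), none of them a member, and it placed the same 6 members under an unadjusted p of 0.05. It gave no adjusted p for the 16 tested members averaging under 10 CPM, Hspb1 among them, so these could not be called. Dnajb13, Dnajc6, Dnajc17 and Hspb6 were not tested, with at most 1.59 CPM in any tumor.

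Most estimates lay below 0. The log2 fold change was below 0 for 44 of the 64 members (68.75%), against 50.2% of all genes tested, and the median was -0.12 against -0.0013 for all genes. The share below 0 differed with the level of the gene. Among members averaging 100 CPM or more, 18 of 22 were below 0, with Dnaja1, Dnaja2, Dnajc7 and Hspa8 the exceptions, whereas 55.0% of the 1653 genes at that level were. Between 10 and 100 CPM it was 19 of 26 members, against 50.3% of genes, and under 10 CPM 7 of 16, against 48.3%. The lean also rested in part on 1 tumor: without control tumor 3, 36 of 65 members (55.4%) were below 0, the median was -0.055, and 3 of the 65 (Cct7, Dnajc7 and Hspa2) had an unadjusted p under 0.05, against 4.58% of all genes in that fit. The part played by that tumor's RNA or cell makeup was not tested.

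**Figure D1:**
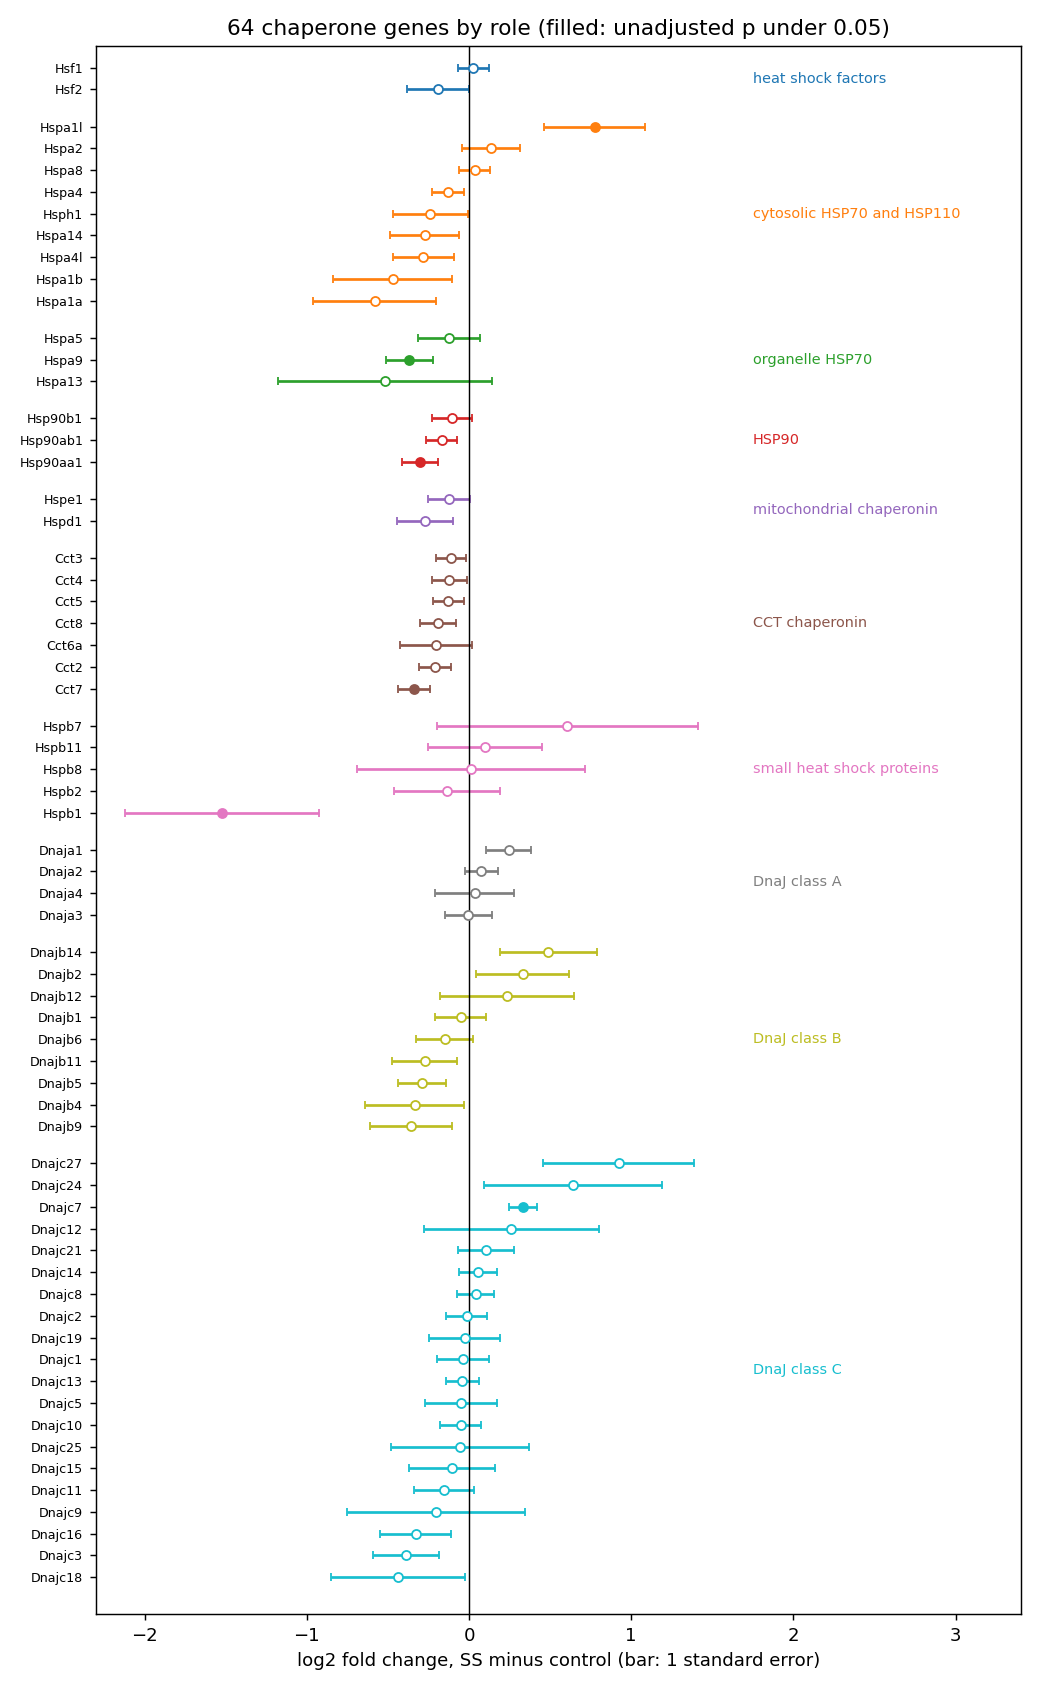
Log2 fold change (SS over control, x axis) of the 64 tested members, grouped by role. Bars are 1 standard error and filled points have an unadjusted edgeR p under 0.05. All 7 CCT, all 3 HSP90 and all 3 organelle HSP70 genes sit left of 0, Hspb1 lies farthest left at -1.52, and no gene passed adjustment.

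In 9 members the 3 SS tumors did not overlap with the 3 control tumors, which happened for 12.9% of all genes (14.1% of the tested members). With 3 tumors against 3, such a separation corresponds to an exact permutation p of 0.1, the smallest this design allows. Cct2, Cct7, Hsp90aa1, Hsp90ab1, Hspa9 and Hspb1 were lower in every SS tumor (6.4% of all genes lay apart in this direction), and Dnajb14, Dnajc27 and Dnajc7 were higher in every SS tumor (6.51% of all genes).

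**Figure D2:**
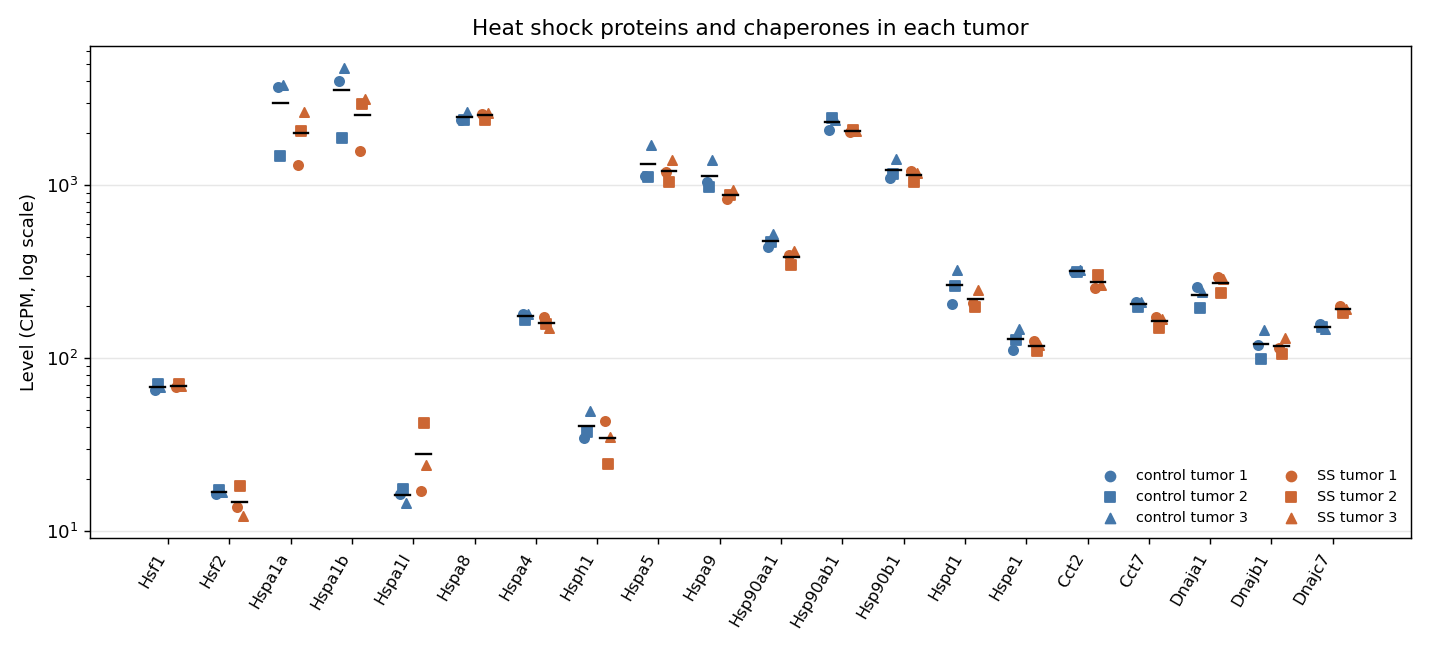
Level in CPM (log axis) of 20 members in each tumor. Points are single tumors, control in blue and SS in orange, and black lines are group means. Hspa1a and Hspa1b spread most among the abundant genes, while Hspa8, Hsp90ab1 and Hsf1 are nearly level across tumors.

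HSF1 is the master regulator of the heat shock response. Its gene, Hsf1, was at 65.8, 70.7 and 68.3 CPM in controls, against 68.5, 71.5 and 68.9 CPM with SS (log2 fold change 0.027, SE 0.10, unadjusted p = 0.79). These 6 values lie within a narrow band, and the groups interleave. Hsf2, a second factor that can pair with HSF1, was at 16.4, 17.4 and 16.9 CPM in controls, against 13.9, 18.3 and 12.3 CPM with SS (log2 fold change -0.19, SE 0.19, unadjusted p = 0.35), with SS tumor 2 above every control tumor and SS tumors 1 and 3 below them.

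Hspa1a and Hspa1b encode the stress-inducible HSP70 and are the classic HSF1 targets. They are near-identical copies that lie side by side on chromosome 17 of mm10, Hspa1a at chr17:34969359-34972156 and Hspa1b at chr17:34956429-34959238, both on the minus strand. Their promoters are shown because both genes varied in step across the 6 tumors. The 250 bases before each start (RefSeq, GRCm38.p6, minus strand, 5′ to 3′, at chr17:34972157-34972406 and chr17:34959239-34959488) are given with capitals marking a heat shock element of 2 units, GAANNTTC:
Hspa1a: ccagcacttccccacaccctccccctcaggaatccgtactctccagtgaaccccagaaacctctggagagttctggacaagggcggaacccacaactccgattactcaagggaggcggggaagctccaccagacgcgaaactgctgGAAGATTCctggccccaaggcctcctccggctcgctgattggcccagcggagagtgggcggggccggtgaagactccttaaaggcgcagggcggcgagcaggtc
Hspa1b: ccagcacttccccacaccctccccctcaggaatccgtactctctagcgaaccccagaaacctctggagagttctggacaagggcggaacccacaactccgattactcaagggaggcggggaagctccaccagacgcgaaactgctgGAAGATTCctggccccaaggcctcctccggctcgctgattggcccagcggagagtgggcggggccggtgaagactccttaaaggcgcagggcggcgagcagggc
The stretches are identical at 247 of 250 positions (98.8%). Counted from 1 at the 5′ end, with the base of Hspa1a first, they differ at C44T, T47C and T249G, none of them within the heat shock element, which begins 104 bases before the start in both.

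Across the members, promoters of 250 bases before to 50 after the start were found in the RefSeq table for 55 of 68 genes. The 3-unit element GAANNTTCNNGAA or its reverse complement was in 4 of them (7.27%; Dnajb6, Hspd1, Hspe1 and Hsph1), against 0.662% of 27025 genes, and the 2-unit form GAANNTTC or TTCNNGAA, which every 3-unit match contains, was in 17 (30.9%) against 17% of all. Both strands were searched. Hsf1, Hspa8, Hspa9, Hsp90aa1 and Hsp90ab1 were among the 13 members with no entry.

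Hspa1a was at 3722, 1479 and 3804 CPM in controls, against 1308, 2062 and 2643 CPM with SS. Hspa1b was at 4026, 1886 and 4744 CPM in controls, against 1579, 2951 and 3159 CPM with SS. In both genes control tumors 1 and 3 stood highest, control tumor 2 and SS tumor 1 were lowest, and the groups overlapped because of control tumor 2. The mean was 33.2% lower with SS for Hspa1a (log2 fold change -0.58, SE 0.38, unadjusted p = 0.16) and 27.8% lower for Hspa1b (log2 fold change -0.47, SE 0.37, unadjusted p = 0.24). Reads shared by the copies can be assigned to either, and the ratio of Hspa1b to Hspa1a ranged from 1.08 to 1.43 between tumors. With both counted as 1 gene the log2 fold change was -0.52 (SE 0.37, edgeR unadjusted p = 0.20). Leaving out single tumors moved Hspa1a between -0.91 and -0.35 and Hspa1b between -0.77 and -0.20. The estimates were smallest without SS tumor 1 for Hspa1a and without control tumor 3 for Hspa1b, and without control tumor 2 both copies had an unadjusted p under 0.05.

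Immediate early genes, which are transcribed within minutes of stress or of handling of a tissue, were also measured, and their sum was lower with SS. The summed level of 12 such genes was 816, 645 and 978 CPM in controls, against 472, 590.0 and 562 CPM with SS, lower in every SS tumor. Control tumor 2 thus lay above every SS tumor here, whereas for Hspa1a and Hspa1b it lay below SS tumors 2 and 3. All 11 that were tested had estimates below 0, against 50.2% of all genes, and none passed adjustment (smallest adjusted p = 0.679, edgeR). An unadjusted p under 0.05 was found in 5 of them (45.5%, against 6.36% of all genes): Egr1 (-1.70 ± 0.39, log2 fold change ± SE), Junb (-0.45 ± 0.13), Egr2 (-0.42 ± 0.17), Zfp36 (-0.61 ± 0.21) and Atf3 (-0.89 ± 0.37). Atf3, a stress-induced factor, was at 93.6, 33.5 and 102 CPM in controls, against 39.9, 38.1 and 45.5 CPM with SS, with control tumors 1 and 3 high and control tumor 2 low, as for Hspa1a. Fos was at 27.16, 12.1 and 34.3 CPM in controls, against 7.83, 27.15 and 12.6 CPM with SS. In Fos and Dusp1 control tumor 2 and SS tumor 1 were lowest, as for Hspa1a. In Jun control tumor 2 was below SS tumor 3. In Egr1, Egr2, Junb and Zfp36 control tumor 2 was above every SS tumor. The part of the early genes in the HSP70 result was not tested.

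**Figure D3:**
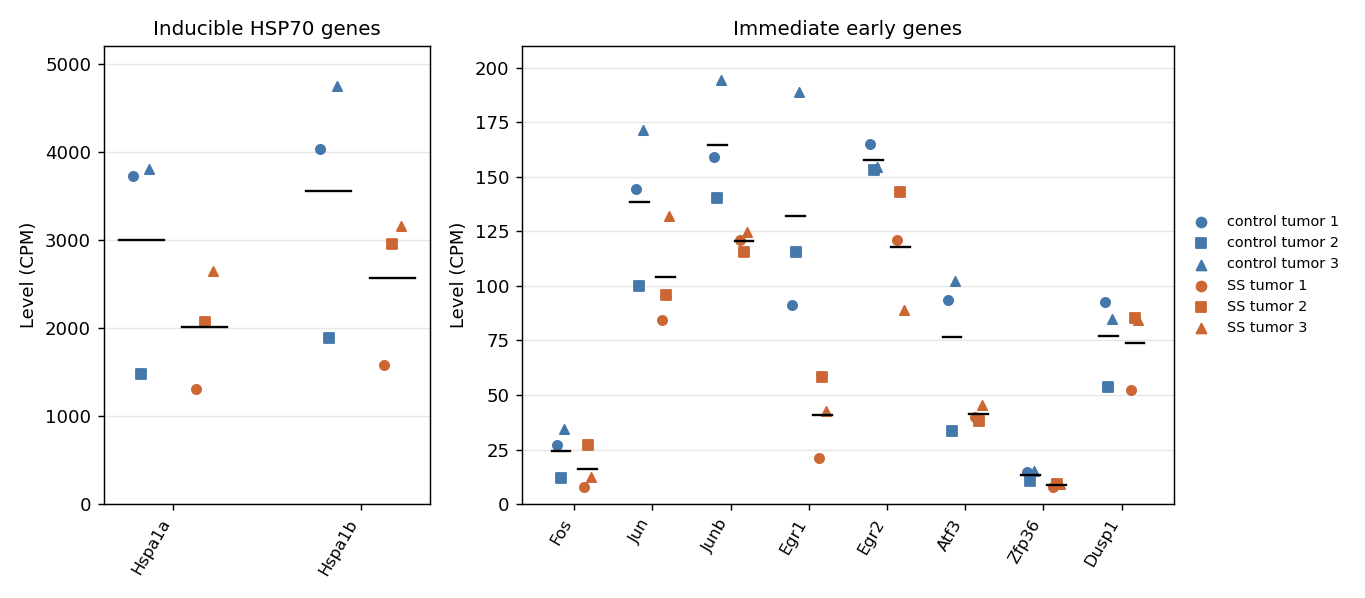
Level in CPM of Hspa1a and Hspa1b (left) and of 8 immediate early genes (right) in each tumor. Points are single tumors and black lines group means. Control tumors 1 and 3 are highest for Hspa1a, Hspa1b, Fos, Jun, Junb, Egr2, Atf3 and Zfp36, but not for Egr1 and Dusp1. Egr1 is lower in every SS tumor than in any control tumor.

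The constitutive HSP70, Hspa8, which folds new proteins in unstressed cells, was at 2377, 2382 and 2661 CPM in controls, against 2578, 2392 and 2633 CPM with SS (log2 fold change 0.035, SE 0.094, unadjusted p = 0.72). Its groups were interleaved and its tumors differed little, in contrast to the inducible pair. Hspa1l, a testis-enriched HSP70 that lies next to Hspa1a on the opposite strand (chr17:34972703-34979228), was at 16.5, 17.5 and 14.7 CPM in controls, against 17.1, 42.3 and 24.2 CPM with SS (log2 fold change 0.77, SE 0.31, unadjusted p = 0.039). SS tumor 2 was highest, and SS tumor 1 lay within the control range. The estimate moved between 0.35 and 1.03 when single tumors were left out, and the unadjusted p was under 0.05 in 1 of these 6 fits. HSP110 members release the nucleotide from HSP70. Of these, Hspa4 was at 180.2, 167 and 180.0 CPM in controls, against 174, 158 and 149 CPM with SS (log2 fold change -0.13, SE 0.10, unadjusted p = 0.22) and Hsph1 at 34.7, 37.7 and 49.9 CPM in controls, against 43.6, 24.7 and 35.3 CPM with SS (log2 fold change -0.24, SE 0.23, unadjusted p = 0.33), both overlapping. Of the 9 cytosolic HSP70 and HSP110 genes tested, 6 had estimates below 0 (66.7%, against 50.2% of all genes), the median was -0.24, and 1 (Hspa1l, higher) had an unadjusted p under 0.05 (11.1%, against 6.36%). The heat shock element of Hsph1 is shown because it is one of the 3-unit matches; it lies within the first exon (RefSeq, GRCm38.p6, minus strand, chr5:149636280-149636308), and capitals mark the match:
Hsph1: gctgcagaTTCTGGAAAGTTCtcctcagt

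All 3 HSP90 genes had lower means in the SS tumors. Hsp90aa1, the inducible cytosolic form, was at 438, 473 and 523 CPM in controls, against 398, 348 and 416 CPM with SS (log2 fold change -0.30, SE 0.11, unadjusted p = 0.027). Every SS tumor was below every control tumor. Hsp90ab1, the constitutive cytosolic form, was at 2093, 2446 and 2396 CPM in controls, against 2039, 2084 and 2048 CPM with SS (log2 fold change -0.17, SE 0.10, unadjusted p = 0.12) and did not overlap either, by a small margin between control tumor 1 and SS tumor 2. Hsp90b1, the form of the endoplasmic reticulum, overlapped, at 1106, 1159 and 1421 CPM in controls, against 1213, 1044 and 1174 CPM with SS (log2 fold change -0.10, SE 0.12, unadjusted p = 0.43). When single tumors were left out, Hsp90aa1 ranged from -0.36 to -0.23 and was under an unadjusted p of 0.05 in 3 of 6 fits. Without control tumor 3, Hsp90b1 turned to 0.016.

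CCT, also called TRiC, is a double ring built from 8 different subunits. The 7 Cct genes in the table were all tested, and all had estimates below 0 (log2 fold change -0.34 to -0.11, median -0.19), as had 50.2% of all genes, with 1 under an unadjusted p of 0.05 (14.3%, against 6.36% of all genes). Cct7 was at 211, 197 and 213 CPM in controls, against 173, 149 and 168 CPM with SS. The SS tumors were all below the control tumors, with a mean 21.0% lower (log2 fold change -0.34, SE 0.10, unadjusted p = 0.009, edgeR). This estimate ranged from -0.39 to -0.28 when single tumors were left out, with an unadjusted p under 0.05 in 6 of 6 fits. Cct2 was also apart, at 314, 316 and 325 CPM in controls, against 254, 304 and 266 CPM with SS (log2 fold change -0.21, SE 0.10, unadjusted p = 0.065). The other subunits overlapped, with estimates ± SE of -0.11 ± 0.093 for Cct3, -0.12 ± 0.11 for Cct4, -0.13 ± 0.10 for Cct5, -0.20 ± 0.22 for Cct6a and -0.19 ± 0.11 for Cct8. The summed level of the 7 genes was 1690.1, 1863 and 1804 in controls, against 1593, 1535 and 1627 with SS (CPM). Tcp1, which encodes the remaining subunit of the ring and falls outside the symbol rule, was at 483, 486 and 474 CPM in controls, against 482, 455 and 488 CPM with SS (log2 fold change -0.019, SE 0.084, unadjusted p = 0.83) and showed no such lean.

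In the endoplasmic reticulum the HSP70 protein is BiP, encoded by Hspa5, and the HSP90 protein is GRP94, encoded by Hsp90b1. Both are induced by unfolded proteins through an ER stress response element, and so is the DnaJ protein Dnajc3, which binds BiP and the kinase PERK. This element, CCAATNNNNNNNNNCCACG or its reverse complement, was in the promoters of these 3 members (5.45% of 55) and in 0.137% of all 27025. The shorter CCAAT, which the element contains, was in 45.5% of members and 41.1% of all. The stretch of Hsp90b1 was cut at 30 bases and shows only the match farthest from its start. That promoter has further matching sequence nearer the start, which is not printed. The matches are shown in capitals because they set these 3 genes apart by sequence (RefSeq, GRCm38.p6: Hspa5 chr2:34772020-34772048 plus strand, Hsp90b1 chr10:86705627-86705656 minus strand, Dnajc3 chr14:118937822-118937850 plus strand):
Hspa5: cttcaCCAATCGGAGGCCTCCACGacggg
Hsp90b1: CCAATCGCAAGGAGCCACGcttcgggcatc
Dnajc3: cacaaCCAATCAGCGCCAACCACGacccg
Hspa5 was at 1136, 1119 and 1711 CPM in controls, against 1187, 1048 and 1407 CPM with SS (log2 fold change -0.12, SE 0.19, unadjusted p = 0.54). Control tumor 3 was highest here, as for Hsp90b1 and Dnajc3, and SS tumor 3 came second for Hspa5. Without control tumor 3 the Hspa5 estimate turned to 0.11. Dnajc3 was at 12.2, 14.8 and 15.8 CPM in controls, against 8.92, 12.7 and 11.2 CPM with SS (log2 fold change -0.39, SE 0.21, unadjusted p = 0.098). Dnajb9, which brings misfolded proteins to degradation, was at 22.6, 12.5 and 23.0 CPM in controls, against 14.6, 14.4 and 16.3 CPM with SS (log2 fold change -0.36, SE 0.25, unadjusted p = 0.19), with control tumor 2 below all SS tumors. Of a list of 12 chaperones linked to ER stress, 10 had estimates below 0 (83.3%, against 50.2% of all genes) and 1 had an unadjusted p under 0.05 (8.33%, against 6.36%), Sdf2l1, which was higher with SS. Hspa13, a minor microsomal HSP70, stayed between 0.316 and 1.56 CPM (log2 fold change -0.52, SE 0.66, unadjusted p = 0.45).

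Mitochondria fold imported proteins with mortalin, encoded by Hspa9, and with the chaperonin of Hspd1 (HSP60) and Hspe1 (HSP10). Hspa9 was at 1048, 976 and 1393 CPM in controls, against 829.6, 878 and 938 CPM with SS (log2 fold change -0.37, SE 0.15, unadjusted p = 0.036). Every SS tumor was below every control tumor, and control tumor 3 was well above the others. Leaving out single tumors moved the estimate from -0.47 to -0.20, with an unadjusted p under 0.05 in 2 of 6 fits. Hspd1 was at 207, 262 and 323 CPM in controls, against 208, 199 and 249 CPM with SS (log2 fold change -0.27, SE 0.17, unadjusted p = 0.15). Its estimate moved from -0.42 to -0.10 when single tumors were left out, the smallest without control tumor 3, with an unadjusted p under 0.05 in 1 of 6 fits. Hspe1 was at 111, 127 and 149 CPM in controls, against 127, 109.7 and 119.5 CPM with SS (log2 fold change -0.12, SE 0.13, unadjusted p = 0.38). Hspd1 and Hspe1 overlapped between groups and were highest in control tumor 3. These genes lie head to head on chromosome 1, Hspd1 on the minus strand (chr1:55077833-55088243) and Hspe1 on the plus strand (chr1:55088148-55091317), and share a promoter. The ratio of Hspd1 to Hspe1 ranged from 1.65 to 2.18. The shared heat shock element holds 2 overlapping 3-unit matches, in capitals, and is shown on the strand of Hspe1 (RefSeq, GRCm38.p6, chr1:55088053-55088082); it overlaps an annotated exon of Hspd1:
Hspe1: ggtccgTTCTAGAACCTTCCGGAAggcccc

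The 6 Hspb genes were grouped as small heat shock proteins by symbol alone. Of these, 5 were tested and 2 had estimates below 0 (Hspb1 and Hspb2). Hspb1 (HSP25 in mouse), which protects actin, was at 1.66, 1.82 and 2.79 CPM in controls, against 0.870, 0.238 and 1.01 CPM with SS. The SS tumors were all below the control tumors, but these levels rest on 21, 37 and 68 counts in controls, against 12, 2 and 12 with SS, the lowest of which is under the floor of 3 counts. Its log2 fold change was -1.52 (SE 0.60, edgeR unadjusted p = 0.036), with a range from -1.85 to -1.15 without single tumors and an unadjusted p under 0.05 in 2 of 6 fits. The 250 bases before its start are shown because it had the largest fitted change of the members tested (RefSeq, GRCm38.p6, plus strand, chr5:135887669-135887918), with capitals marking its 2 heat shock elements of 2 units:
Hspb1: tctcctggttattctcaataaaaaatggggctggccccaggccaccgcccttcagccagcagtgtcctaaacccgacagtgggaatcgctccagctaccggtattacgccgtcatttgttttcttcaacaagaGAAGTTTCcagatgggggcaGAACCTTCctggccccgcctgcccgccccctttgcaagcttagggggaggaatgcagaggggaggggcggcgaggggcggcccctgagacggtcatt
Among the other members of this family, Hspb7, known from heart and skeletal muscle, was at 2.29, 7.56 and 3.73 CPM in controls, against 0.942, 12.7 and 7.34 CPM with SS (log2 fold change 0.61, SE 0.80, unadjusted p = 0.47). Hspb8, a partner of the co-chaperone Bag3 in muscle, was at 1.11, 6.09 and 5.21 CPM in controls, against 1.59, 7.03 and 4.14 CPM with SS (log2 fold change 0.013, SE 0.70, unadjusted p = 0.99), and Hspb2, next to Cryab in the genome, at 11.4, 15.4 and 13.98 CPM in controls, against 8.92, 8.93 and 19.3 CPM with SS (log2 fold change -0.13, SE 0.33, unadjusted p = 0.69). Hspb11, which is in the group only by its symbol, had an estimate ± SE of 0.10 ± 0.35.

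Skeletal muscle RNA varied widely between tumors, in an order that Hspb7, Hspb8 and the related crystallin Cryab shared in part. The summed level of 16 skeletal muscle genes, all in the table, was 7791, 15601 and 2521 CPM in controls, against 595, 31906 and 17650.4 CPM with SS. SS tumor 1 was lowest and SS tumor 2 highest both for this sum and for Hspb7 and Cryab, which was at 118, 257 and 223 CPM in controls, against 82.7, 367 and 250.3 CPM with SS. For Hspb8, SS tumor 2 was highest and control tumor 1 lowest. Control tumors 1 and 3 ran against the muscle sum, which was higher in control tumor 1, while Hspb7, Hspb8 and Cryab were higher in control tumor 3. The 15 muscle genes tested had estimates above 0 and none had an unadjusted p under 0.05. Myoglobin (Mb) was at 0 in SS tumor 1 and at most 1.91 CPM. The part of muscle in the Hspb levels was not tested.

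**Figure D4:**
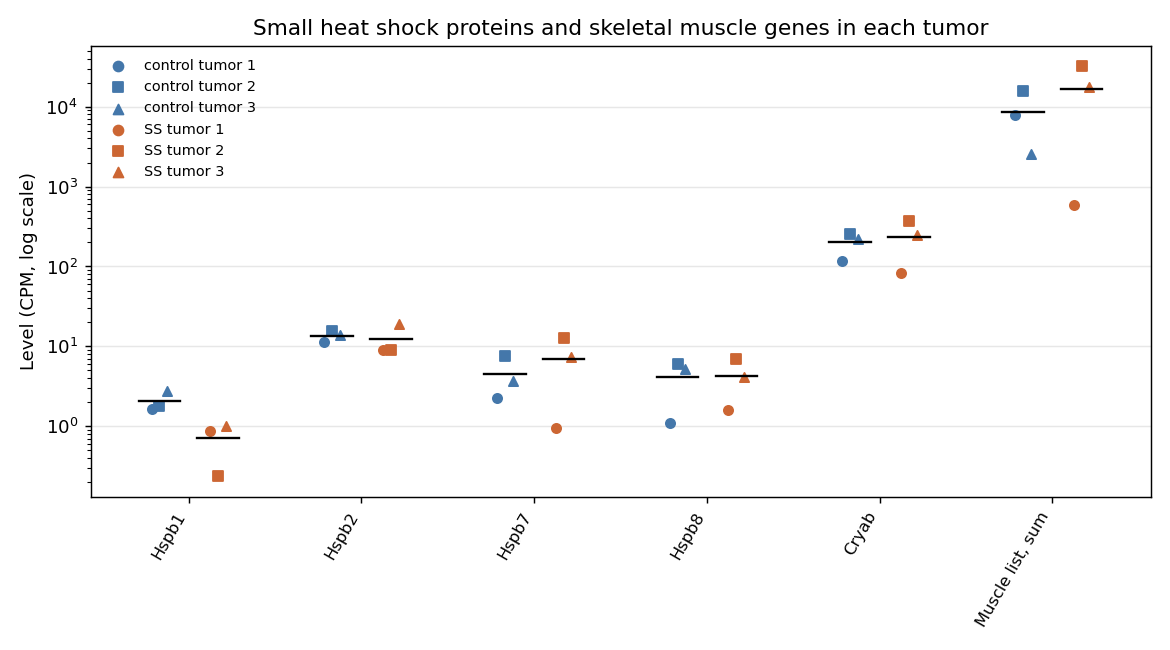
Level in CPM (log axis) of 4 small heat shock protein genes, Cryab and the sum of 16 skeletal muscle genes in each tumor. Points are single tumors and black lines group means. SS tumor 1 is lowest and SS tumor 2 highest for Hspb7, Cryab and the muscle sum, whereas Hspb1 is lower in every SS tumor.

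DnaJ proteins, the J-domain partners of HSP70, fall into classes A, B and C by their domains. The class A genes did not lean down: of 4 tested, 3 had estimates above 0. Dnaja1, the main cytosolic partner of HSP70, was at 258, 194 and 241 CPM in controls, against 295, 239 and 288 CPM with SS (log2 fold change 0.25, SE 0.14, unadjusted p = 0.11), with 2 SS tumors above all controls and SS tumor 2 below control tumors 1 and 3. Of 9 class B genes tested, 6 had estimates below 0 (against 50.2% of all genes) and none had an unadjusted p under 0.05. Dnajb1, the stress-inducible HSP40, was at 119.9, 99.6 and 146 CPM in controls, against 115, 106 and 131 CPM with SS (log2 fold change -0.052, SE 0.16, unadjusted p = 0.75). It did not share the spread of Hspa1a, the highest tumor being 1.47 times the lowest, against 2.91 times for Hspa1a. Dnajb4, another partner of HSP70 and a listed HSF1 target, did have the order of Hspa1a, at 51.3, 29.2 and 64.7 CPM in controls, against 27.5, 43.7 and 43.98 CPM with SS (log2 fold change -0.34, SE 0.30, unadjusted p = 0.30). Control tumors 1 and 3 were highest and control tumor 2 and SS tumor 1 lowest, a 2.35-fold range, and without control tumor 2 its unadjusted p was under 0.05, as for Hspa1a and Hspa1b. Dnajb14, an ER membrane member, was apart and higher, at 2.92, 3.63 and 3.12 CPM in controls, against 4.28, 4.17 and 5.15 CPM with SS (log2 fold change 0.49, SE 0.30, unadjusted p = 0.14).

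Class C is the most varied, and 13 of its 20 tested genes had estimates below 0 (65%, against 50.2% of all genes), with a median of -0.039. Dnajc7 (also TPR2), which passes clients between HSP70 and HSP90, was the clearest member that was higher. It was at 157, 151 and 149 CPM in controls, against 201, 183 and 192 CPM with SS. All SS tumors were above all control tumors, the mean was 25.9% higher, and the spread within each group was small (log2 fold change 0.33, SE 0.089, unadjusted p = 0.0061, edgeR). The estimate lay from 0.30 to 0.36 when single tumors were left out, with an unadjusted p under 0.05 in 6 of 6 fits. Its gene lies at chr11:100582836-100620168 on the minus strand of mm10, and that of Cct7, which was lower in the same fits, at chr6:85451505-85468477 on the plus strand. Dnajc13, an endosomal protein, was at 162, 177 and 189.8 CPM in controls, against 171, 182 and 161 CPM with SS (log2 fold change -0.042, SE 0.10, unadjusted p = 0.70). The largest estimates were in scarce genes: Dnajc27 at 1.74, 2.11 and 1.39 CPM in controls, against 2.25, 5.24 and 2.53 CPM with SS (log2 fold change 0.92, SE 0.47, unadjusted p = 0.086), Dnajc24 at 1.42, 3.78 and 3.69 CPM in controls, against 5.22, 6.79 and 2.03 CPM with SS (log2 fold change 0.64, SE 0.55, unadjusted p = 0.28) and Dnajc18 at 2.53, 3.88 and 3.20 CPM in controls, against 2.83, 1.43 and 2.79 CPM with SS (log2 fold change -0.44, SE 0.41, unadjusted p = 0.32). Each of these shrank without SS tumor 2: over the fits that left out single tumors the estimate ranged from 0.45 to 1.14 for Dnajc27, 0.28 to 1.00 for Dnajc24 and -0.60 to -0.19 for Dnajc18. Dnajc27 was apart, by a small margin between control tumor 2 and SS tumor 1.

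The deposited values are per transcript, and some members had transcripts whose estimates were of opposite sign. Of the 110 member transcripts 90 were tested, and 9 (10%) had an unadjusted p under 0.05, against 5.58% of 15132 transcripts. None passed adjustment (adjusted p 0.777 to 0.886; 0 of all transcripts), and 5 of the 9 came from genes with several transcripts, where the estimated counts depend on how reads were divided among overlapping transcripts. Hspa2, an HSP70 abundant in testis, has a transcript NM_001002012 that starts upstream of NM_008301. It was at 0.477, 2.999 and 0.205 CPM in controls, against 9.64, 26.4 and 11.4 CPM with SS (log2 fold change 3.66, SE 1.00, unadjusted p = 0.0089, adjusted p = 0.782, edgeR). Every SS tumor was above every control tumor, with SS tumor 2 highest. The main transcript NM_008301 was at 42.7, 36.4 and 60.9 CPM in controls, against 39.01, 30.5 and 40.5 CPM with SS (log2 fold change -0.35, SE 0.23, unadjusted p = 0.17), and the gene as a whole at 42.9, 39.4 and 61.2 CPM in controls, against 48.6, 57.05 and 52.0 CPM with SS (log2 fold change 0.13, SE 0.18, unadjusted p = 0.48).

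Dnaja3, a mitochondrial DnaJ protein also called TID1, had an estimate ± SE of -0.006 ± 0.15 as a gene. Its transcript NM_023646 was at 9.85, 23.1 and 13.5 CPM in controls, against 9.43, 6.77 and 4.79 CPM with SS (log2 fold change -1.14, SE 0.41, unadjusted p = 0.028), lower in every SS tumor. NM_001135112 was at 13.6, 0.344 and 7.41 CPM in controls, against 15.1, 14.1 and 16.99 CPM with SS (log2 fold change 1.12, SE 0.97, unadjusted p = 0.29), higher in every SS tumor, though control tumor 1 was close to them. Hsf1, whose gene sums lay in a narrow band, also had transcripts with estimates of opposite sign. NM_001331154, its most abundant transcript, was at 46.96, 55.5 and 56.6 CPM in controls, against 32.3, 47.8 and 38.4 CPM with SS (log2 fold change -0.43, SE 0.18, unadjusted p = 0.049). NM_001331152 was at 3.34, 0.934 and 1.96 CPM in controls, against 14.6, 1.54 and 12.4 CPM with SS (log2 fold change 2.21, SE 0.85, unadjusted p = 0.038), with SS tumor 2 within the control range, and the noncoding NR_138589 at 5.24, 5.80 and 1.39 CPM in controls, against 11.9, 8.08 and 12.4 CPM with SS (log2 fold change 1.38, SE 0.55, unadjusted p = 0.04), apart and higher. The remaining members of the 9 were the single transcripts of Cct7, Dnajc7, Hsp90aa1 and Hspa9.

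**Figure D5:**
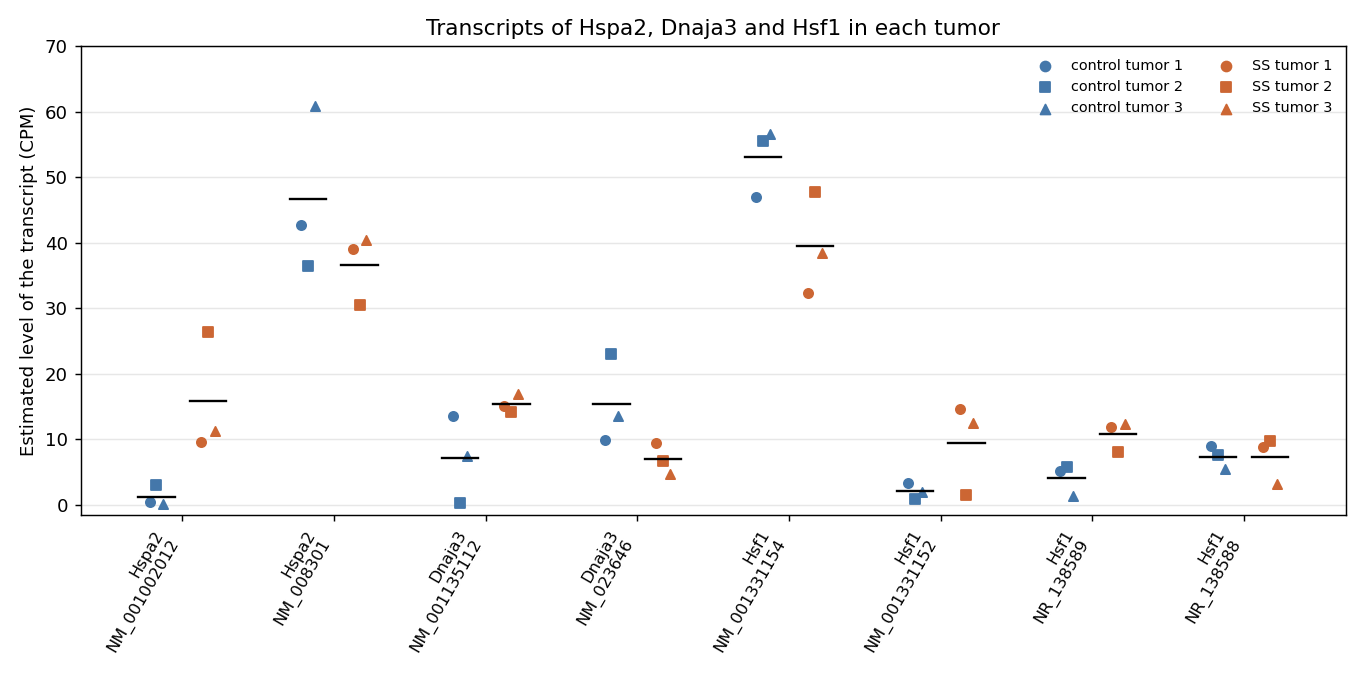
Estimated level in CPM of transcripts of Hspa2, Dnaja3 and Hsf1 in each tumor. Points are single tumors and black lines group means. NM_001002012 of Hspa2 and NR_138589 of Hsf1 are higher, and NM_023646 of Dnaja3 lower, in every SS tumor than in any control tumor.

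Levels can be compared between genes only per length. In CPM per kilobase of transcript, with GENCODE transcript lengths for 64 of 68 members, the mean of the 6 tumors was highest for Hspa1b at 1091, followed by Hspa8 at 1046, Hsp90ab1 at 867, Hspa1a at 844, Hspa5 at 485, Hsp90b1 at 419.9, Hspa9 at 331 and Cct3 at 181. The order at the top was not the same in both groups. In the control tumors Hspa1b led with 1269.6 ± 530.4 CPM per kilobase (SD, n = 3) over Hspa8 with 1035 ± 64.6. In the SS tumors Hspa8 led with 1056 ± 52.7 over Hspa1b with 912 ± 304. In both groups the gap between these neighbours was smaller than the spread of Hspa1b.

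Co-chaperones and other partners outside the symbol rule were also counted. Of 60 listed genes 56 were in the table and 50 were tested, 28 had estimates below 0 with a median of -0.043, and 1 had an unadjusted p under 0.05 (2%, against 6.36% of all genes). This was Sdf2l1, a partner of BiP, at 26.4, 32.01 and 35.7 CPM in controls, against 61.98, 36.3 and 38.4 CPM with SS (log2 fold change 0.54, SE 0.23, unadjusted p = 0.047), apart and higher mainly through SS tumor 1. Bag3, a nucleotide exchange factor induced by HSF1, was at 165, 160.1 and 209 CPM in controls, against 215, 195 and 159.9 CPM with SS (log2 fold change 0.093, SE 0.15, unadjusted p = 0.56), without the order of tumors seen for Hspa1a. Serpinh1 (HSP47), the collagen chaperone, was at 575, 808 and 694 CPM in controls, against 492, 575 and 593 CPM with SS (log2 fold change -0.32, SE 0.14, unadjusted p = 0.055). In a list of 21 known HSF1 targets, of which 13 are members, 16 estimates were below 0 (76.2%) with a median of -0.14, and 2 (Hsp90aa1 and Hspb1) had an unadjusted p under 0.05 (9.52%, against 6.36% of all genes). The summed level of these targets was 14712, 11114 and 16722 CPM in controls, against 9987, 12074 and 13229 CPM with SS, with the groups overlapping. A large part of this sum was Hspa1a and Hspa1b, together 7748, 3364 and 8549 CPM in controls, against 2886, 5014 and 5802 CPM with SS.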

How the data were processed

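RNA of 6 tumors was sequenced from stranded, polyadenylated libraries as pairs of 75-nucleotide reads. The authors deposited estimated counts (expected counts) per RefSeq transcript on mm10, without normalization, for transcripts with at least 10 counts over the 6 tumors. The submitters' processing notes name CASAVA 1.8.1, Bowtie2 2.2.5 and STAR 2.5.3a, and the program that divided reads among transcripts is not given in the sources used here. Counts were summed by symbol, with 21 symbols held as dates restored from accessions, and rounded. The study's methods name quantile normalization and a t statistic, which was run as an alternative, since counts need a count test. edgeR 4.0.16 (R 4.3.3; TMM, filterByExpr, quasi-likelihood test, Benjamini-Hochberg over all genes tested) gave all p-values, 2-sided. DESeq2 1.42.0 and limma 3.58.1 (voom with sample weights) were alternatives, with other scalings, filters, thinned libraries and each tumor left out. The steps were tested on simulated data. Gene ends in the table were 1 base past the last base and were reduced by 1. Genes printed with values were those with unadjusted p under 0.05, the 5 largest changes in each direction, the gene of each role with the highest mean CPM (not corrected for length), key genes by name, and co-chaperones with unadjusted p under 0.05. Dnajb4, Hspa2, Hspb11, Dnaja3, Tcp1, Cryab, Bag3, Serpinh1 and the marker genes were added beside them, some after their values were seen. The members and lists were chosen with earlier results of these data known. Totals of 8468914 to 24441522 counts limit precision most for genes under 1 CPM.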

Additional observations from a re-analysis of the deposited data

How the results depend on the processing

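No member passed an adjusted p of 0.05 under any alternative run. Over the whole table DESeq2 called 35 genes, against 0 by edgeR and by the other alternatives. With RLE, upper-quartile and library-total scaling 44 of 64 member estimates were below 0 in each fit, and with thinned libraries 40 of 63 were. Cct7 and Dnajc7 had an unadjusted p under 0.05 in every fit run. Of the other 4 members, Hspa1l lost it with limma voom (5 members, 6.98% of all genes), and Hspa1l and Hspa9 lost it with quantile normalization and a t statistic (5 members, with Hsp90ab1 added; 6.71% of all genes). Signs of weak estimates turned in the following fits: Dnajb1 0.010, Hspb7 -0.10 and Hspb8 -0.19 with limma voom, Hspa13 0.28 and Hspa8 -0.057 with quantile normalization, and Hsf1 -0.013 in thinned libraries. With each tumor left out in turn, 3 to 9 members had an unadjusted p under 0.05 (3 of 65 without control tumor 3, against 4.58% of all genes, and 9 of 65 without control tumor 2, against 4.97%). Over these fits the share of all genes ranged from 4.58% to 7.81%. Between 0 and 2 co-chaperones were under that p (0 without SS tumor 1, and 2 without control tumor 3, SS tumor 2 or SS tumor 3). So were 5 to 12 member transcripts (5 without control tumor 3 or SS tumor 3). Between 13 and 18 members did not overlap, a count that grows with fewer tumors by construction. Shares over all transcripts, and of all genes not overlapping, are not given for these fits. The transcript and overlap counts are therefore no result about the members. The log2 fold changes whose sign turned on leaving out a tumor ranged from -0.18 to 0.10 for Dnajb1, -0.10 to 0.017 for Dnajc13, -0.17 to 0.016 for Hsp90b1, -0.24 to 0.11 for Hspa5, -0.61 to 0.057 for Hspb2, -0.14 to 1.19 for Hspb7 and -0.55 to 0.41 for Hspb8; the cause was not tested. Of the 37 members chosen by the naming rule, 28 had an estimate that moved by over 1.5 times or turned sign in at least 1 of these fits, most often without SS tumor 2 (19 members), and the 9 that did not were Cct2, Cct7, Cct8, Dnajb14, Dnajc3, Dnajc7, Hsp90aa1, Hsp90ab1 and Hspb1. Tumors 1, 2 and 3 of the groups share only a number: deviations of same-numbered tumors correlated at 0.073, 0.046 and 0.11. With the number as a replicate block 8 members had an unadjusted p under 0.05, Dnaja1 and Hspa4l in addition to the 6 (8 of 64, against 5.9% of all genes). The member median was -0.11, with 0 adjusted calls. In the blocked fit 1 co-chaperone was under that unadjusted p, against the same 5.9% of all genes. So were 7 member transcripts, for which the share over all transcripts is not given.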

Other observations

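Summed levels of other cell type lists are given as values. Dendritic cell genes (8 of 10 in the table) were at 94.2, 64.5 and 65.7 CPM in controls, against 193, 149 and 102 CPM with SS, higher in every SS tumor. This sum was carried by 1 gene, Itgax, at 66.8, 49.4 and 50.9 CPM in controls, against 173, 131 and 89.5 CPM with SS, and 3 of the 5 genes tested had estimates below 0, with a median log2 fold change of -0.028. Macrophage genes were at 836, 971 and 1043 CPM in controls, against 1107, 876 and 1042 CPM with SS, and endothelial genes (9 of 10) at 144, 119 and 88.1 CPM in controls, against 123, 218 and 127 CPM with SS. Proliferation genes were at 505, 704 and 415 CPM in controls, against 641, 491 and 577 CPM with SS. The last 3 sums overlapped between groups, and none of them had the order of tumors seen for Hspa1a and Hspa1b.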
